A study of Mus musculus with 6 samples.

Results

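Small leucine-rich proteoglycans (SLRPs) were examined in leg muscle RNA-seq of mouse fetuses at embryonic day 18.5, in 3 wild-type (WT) and 3 *SYISL* knockout (KO) samples. The members were fixed by name as 10 genes, *Dcn*, *Bgn*, *Lum*, *Fmod*, *Kera*, *Omd*, *Ogn*, *Prelp*, *Aspn* and *Epyc*, out of 56262 genes listed in the count table. All 10 were found, and all 10 were among the 22071 genes that passed the filter on low counts. *SYISL* is a noncoding transcript within an intron of *Synpo2*, and the question put to these samples is how its loss alters gene expression in the muscle of the fetus. The fetuses came from matings within a genotype, so KO fetuses also had KO mothers, and the genotypes of fetus and mother cannot be told apart. No further allele or treatment is given for either group.

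SLRPs are secreted proteins of the extracellular matrix with a core of leucine-rich repeats that binds collagen. They set how collagen fibrils grow in width and how fibrils are spaced, and several of them hold growth factors of the TGFβ family in the matrix. In muscle and limb they are made mainly by connective tissue cells, such as the fibroblasts between muscle fibers, and by the cells of tendon, cartilage, bone and dermis. The family is divided into classes by sequence. Decorin (*Dcn*), biglycan (*Bgn*) and asporin (*Aspn*) form the first class, and decorin and biglycan carry chondroitin or dermatan sulfate chains. Fibromodulin (*Fmod*), lumican (*Lum*), keratocan (*Kera*), osteomodulin (*Omd*) and *Prelp* form the second, most of which can carry keratan sulfate. Epiphycan (*Epyc*) and osteoglycin (*Ogn*) belong to the third.

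Of the 10 members, *Prelp* and *Fmod* rose in KO, *Omd* fell, and the other 7 were not called. A call needed a fold change over 1.5 and a Benjamini-Hochberg adjusted p under 0.05 in edgeR's quasi-likelihood test. Of all genes tested, 8.31% were called higher and 8.39% lower. Without the fold threshold, 6 members passed with a higher level in KO and 2 with a lower one, where 21.9% of all genes passed as higher and 23.1% as lower. *Bgn*, *Aspn*, *Dcn* and *Lum* joined *Prelp* and *Fmod* on the higher side, and *Epyc* joined *Omd* on the lower. Every KO value lay above every WT value for those 6 members and below for those 2, as it did for 27.3% and 28.5% of all genes tested. Only *Kera* and *Ogn* overlapped between genotypes. The median log2 fold change of the members was 0.18, beside -0.0041 over all genes tested. Log2 fold changes are of KO over WT throughout, and levels in CPM are relative levels (counts over TMM-scaled library size) on a common scale.

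**Figure D1:**
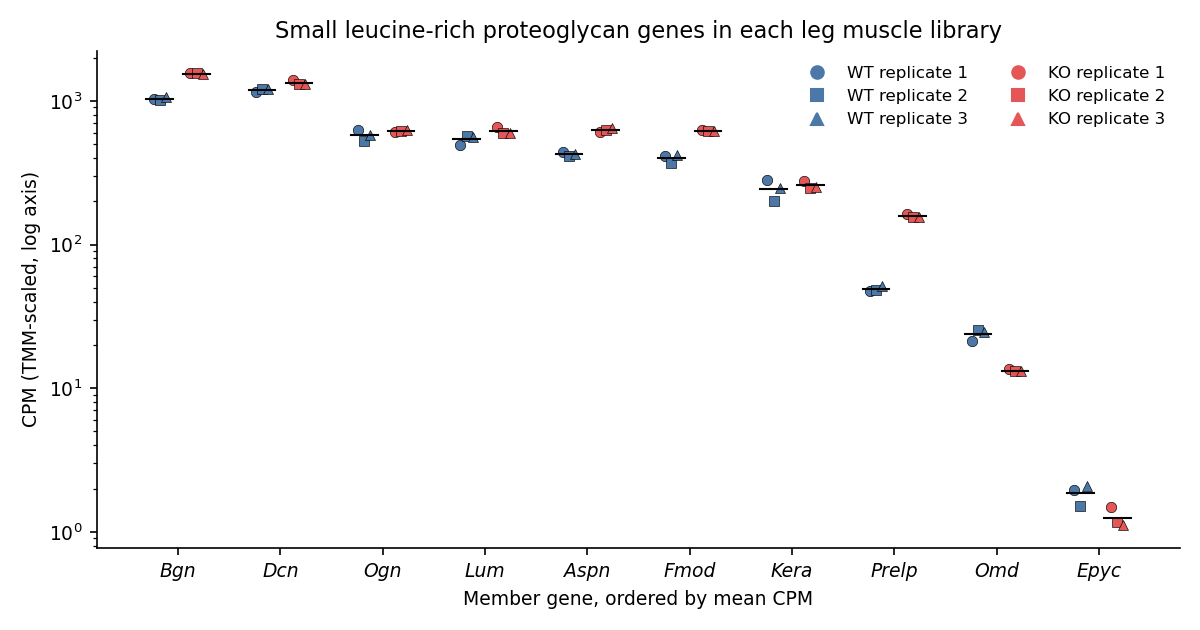
TMM-scaled CPM (log axis) of each SLRP gene, ordered by mean CPM, with the 3 WT samples in blue, the 3 KO samples in red and a black line at each group mean. *Prelp*, at 47.4 to 51.6 CPM in WT and 156 to 162 in KO, is the member whose groups are farthest apart, while the groups of *Kera* and *Ogn* overlap.

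The libraries held 82054811 to 102233181 counts, and a count of 0 would allow up to 3 counts, or 0.0293 to 0.0366 CPM, which covers counting error only. The annotation used holds no separate entry for *SYISL*, and the counts could not show its loss. Its host gene *Synpo2* was at 136 ± 4.21 CPM in WT and 214 ± 18.9 in KO (SD, n = 3 each). The defining genes of muscle fibers were high in every library, with summed levels of 20176 to 22519 CPM in WT and 42435 to 51941 in KO over 9 genes. The tissue was not muscle alone. The 12 epidermis markers summed to 17831 to 26347 CPM in WT and 996 to 1122 in KO, none of them was at 0, and all 12 fell. The 5 red blood cell markers also fell, from 3516 to 4324 CPM in WT to 498 to 572 in KO, and 7 of 10 cartilage markers fell. The 6 adipocyte markers rose, from 114 to 147 CPM in WT to 359 to 420 in KO. *Xist* was at 1.48 CPM in WT replicate 1 and at 413 to 837 CPM in the other libraries, and WT replicate 2 and KO replicate 1 had almost no Y-linked counts, while WT replicate 3, KO replicate 2 and KO replicate 3 held both, so the libraries differ in sex. The labels do not say that the replicates came from separate animals, or whether a library was 1 fetus or a pool. The sex-linked values differ within each genotype, so the 3 libraries of a genotype were not all repeats of the same RNA. The p-values measure the spread between these samples, part of which may be technical. In bulk tissue, fewer cells of a type and less RNA per cell cannot be told apart, and the part of skin, fat, cartilage or sex in the SLRP values was not tested beyond the values given with them.

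The members lie in 3 clusters and at 1 single place in the mouse genome (mm10). On chromosome 10, *Dcn* (chr10:97479609-97518143), *Lum* (chr10:97565128-97572703), *Kera* (chr10:97606879-97613692) and *Epyc* (chr10:97644068-97682454) follow each other on the plus strand within 203 kb. On chromosome 13, *Aspn* (chr13:49544443-49567565), *Omd* (chr13:49582462-49592822) and *Ogn* (chr13:49608046-49624501) lie on the plus strand within 80.1 kb. On chromosome 1, *Prelp* (chr1:133910304-133921414, minus strand) and *Fmod* (chr1:134037254-134048277, plus strand) lie within 138 kb. *Bgn* (chrX:73483602-73495933, plus strand) is alone.

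The 250 bases upstream of the start site are shown for 4 members that stand next to each other in these clusters, since *Prelp* and *Fmod* both rose and the neighbours *Aspn* and *Omd* differed in direction. They are RefSeq sequences of GRCm38.p6, 5′ to 3′ on the strand of the gene, with capitals at matches to the motifs named after them. The stretches are chr1:133921402-133921651 (minus strand) for *Prelp*, chr1:134037004-134037253 (plus) for *Fmod*, chr13:49544193-49544442 (plus) for *Aspn* and chr13:49582212-49582461 (plus) for *Omd*.
Prelp: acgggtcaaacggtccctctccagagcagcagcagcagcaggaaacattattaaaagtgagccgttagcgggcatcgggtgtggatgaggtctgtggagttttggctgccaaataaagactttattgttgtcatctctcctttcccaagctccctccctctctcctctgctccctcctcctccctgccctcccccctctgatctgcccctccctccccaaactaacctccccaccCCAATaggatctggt
Fmod: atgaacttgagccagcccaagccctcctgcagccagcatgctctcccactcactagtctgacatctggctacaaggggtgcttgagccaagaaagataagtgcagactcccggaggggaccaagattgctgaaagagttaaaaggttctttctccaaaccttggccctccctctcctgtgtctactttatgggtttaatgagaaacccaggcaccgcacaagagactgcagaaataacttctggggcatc
Aspn: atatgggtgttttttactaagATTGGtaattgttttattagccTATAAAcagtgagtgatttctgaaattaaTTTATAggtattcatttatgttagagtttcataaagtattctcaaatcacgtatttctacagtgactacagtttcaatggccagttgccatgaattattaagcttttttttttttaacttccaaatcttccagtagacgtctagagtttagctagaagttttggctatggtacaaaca
Omd: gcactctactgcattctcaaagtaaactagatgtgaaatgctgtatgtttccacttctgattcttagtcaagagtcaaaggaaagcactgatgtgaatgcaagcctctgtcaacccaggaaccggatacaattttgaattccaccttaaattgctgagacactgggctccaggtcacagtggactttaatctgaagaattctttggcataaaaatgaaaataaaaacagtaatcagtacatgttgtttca

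Of the 10 members, 8 had a start site in the RefSeq table. *Dcn* and *Lum* did not. Both strands were searched for the TATA box (TATAAA), the CCAAT box (CCAAT), the GC box (GGGCGG), the AP-1 site (TGANTCA) and an E-box bound by myogenic factors (CAGCTG), none of which contains the letters of another. The *Prelp* stretch held a CCAAT box 15 bases before the start, in letters found in 33.8% of 32851 stretches of this length. The *Aspn* stretch held a CCAAT box and 2 TATA boxes, a motif found in 12.4%. The *Fmod* and *Omd* stretches held none of the 5 motifs, like that of *Epyc*. Among the others, *Kera* held the CCAAT box, *Ogn* the TATA box and the E-box (13% of all stretches), and *Bgn* the E-box and the GC box (32.7%). None of the 8 held the AP-1 site (6.75%). The stretches also differed in base composition, with 30.0% G and C in *Aspn*, 38.4% in *Omd*, 51.2% in *Fmod*, 55.6% in *Prelp* and 64.4% in *Bgn*. *Prelp* and *Fmod*, the members called higher, therefore had no motif of this list in common. A CCAAT box was in both *Prelp* and *Aspn*, which passed as higher only without the fold threshold. A match says only that these letters are in this window, and a missing match only that they are not.

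*Prelp* changed most among the members. It encodes a matrix protein with a basic end that binds heparan sulfate and is thought to link basement membranes to collagen. It was at 47.4, 48.0 and 51.6 CPM in WT and at 162, 156 and 156 in KO. All KO samples were high and close to each other, and the groups were far apart. The log2 fold change was 1.69 (standard error 0.044), 3.22-fold, with an adjusted p of 2.10e-08 from edgeR's quasi-likelihood test. *Prelp* was called under all 16 alternatives to this fit, with log2 fold changes of 1.38 to 1.76. An antisense gene, *Gm15851*, shares 350 of the 3615 exon bases of *Prelp* and held 0 to 4 counts against at least 3964 of *Prelp*. The strand setting of the counting is not given, so the effect of this overlap on the *Prelp* counts is not known.

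*Fmod*, which regulates collagen fibril width and is abundant in tendon, was at 415, 370 and 418 CPM in WT and at 628, 615 and 613 in KO. The KO samples lay within a narrow range, above all WT samples, of which replicate 2 was lowest. Its log2 fold change was 0.63 (standard error 0.057, adjusted p = 2.07e-05 from edgeR), which is 1.54-fold and just past the threshold. It was no longer called without WT replicate 2 (0.57), with library size in place of TMM (0.56) or when scaled to the fibroblast markers (0.32). *Lum*, the closest relative of *Fmod* and a regulator of fibril width in cornea, skin and tendon, behaved otherwise. *Lum* was at 495, 568 and 557 CPM in WT and at 656, 598 and 594 in KO. Its groups did not overlap but nearly met, and the log2 fold change was 0.19 (standard error 0.067, adjusted p = 0.0443 from edgeR). This adjusted p was lost in 8 of 16 alternatives, the replicate block among them (adjusted p = 0.103).

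*Kera*, a keratan sulfate carrier best known from the cornea, was at 279, 202 and 246 CPM in WT and at 278, 246 and 252 in KO. The WT samples spread on both sides of the KO samples. Its log2 fold change was 0.09 (standard error 0.10, adjusted p = 0.510 from edgeR), with -0.026 without WT replicate 2 and 0.20 without WT replicate 1. *Omd*, which binds bone mineral and is made by osteoblasts, fell instead. It was at 21.2, 25.5 and 24.6 CPM in WT and at 13.5, 13.1 and 13.1 in KO. The KO samples were all low and nearly equal. The log2 fold change of *Omd* was -0.85 (standard error 0.073, adjusted p = 1.41e-05 from edgeR), 1.80-fold lower, and it was called under all 16 alternatives, from -1.15 to -0.78.

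In the first class, *Bgn* and *Aspn* stood just below the fold threshold. Biglycan binds collagen and signals through Toll-like receptors when released. *Bgn* was at 1039, 1011 and 1062 CPM in WT and at 1555, 1552 and 1541 in KO. The KO samples differed by less than the WT samples did and lay well above them. The log2 fold change was 0.58 (standard error 0.052, adjusted p = 1.76e-05 from edgeR), or 1.49-fold. *Bgn* passed 1.5-fold under 4 alternatives, with 0.65 under upper-quartile factors, 0.60 without WT replicate 3, and 0.59 both without KO replicate 3 and with the Y-linked share as a covariate. *Bgn* lies on the X chromosome, and WT replicate 1, the library with almost no *Xist*, was not apart from the other WT samples.

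Asporin binds collagen at the same place as decorin and restrains TGFβ. *Aspn* was at 441, 413 and 429 CPM in WT and at 603, 625 and 652 in KO, with no overlap. Its log2 fold change was 0.55 (standard error 0.052, adjusted p = 2.41e-05 from edgeR), or 1.47-fold. *Dcn*, the best known TGFβ-binding member, differed less. It was at 1145, 1206 and 1203 CPM in WT and at 1395, 1311 and 1319 in KO. KO replicate 1 was highest, and the lowest KO sample lay above the highest WT sample. The log2 fold change of *Dcn* was 0.18 (standard error 0.055, adjusted p = 0.0251 from edgeR), 1.13-fold, and the adjusted p was lost in 7 of 16 alternatives, such as the replicate block (0.0810).

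In the third class, *Ogn*, which takes part in bone and fibril formation, was at 624, 523 and 582 CPM in WT and at 611, 614 and 632 in KO. The highest WT sample lay among the KO samples, and the log2 fold change was 0.10 (standard error 0.066, adjusted p = 0.244 from edgeR). The value for *Ogn* was 0.035 without WT replicate 2 and 0.16 without WT replicate 1. *Ogn* missed the adjusted p in 14 of 16 alternatives. With the Y-linked share as a covariate it was 0.16 and passed (adjusted p = 0.0181 from edgeR). Scaled to the fibroblast markers, which moved the median of all genes to -0.31, it was -0.21 and passed in the other direction (adjusted p = 0.0272 from edgeR). *Epyc*, a gene of growth plate cartilage, was near the low end of what was tested. Its counts were 184, 125 and 221 for WT and 139, 112 and 108 for KO, or 1.94, 1.51 and 2.09 CPM against 1.48, 1.18 and 1.11. The groups were separate but close. Its log2 fold change was -0.56 (standard error 0.16, adjusted p = 0.0172 from edgeR), 1.48-fold lower, with a standard error above that of the other members. The adjusted p of *Epyc* was up to 0.0800 when 1 sample was left out. A noncoding gene on the opposite strand, *Gm10754*, shares 1041 of the 2561 exon bases of *Epyc* and held 0 to 2 counts. Without the strand setting, the effect of this overlap on the *Epyc* counts is not known either.

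**Figure D2:**
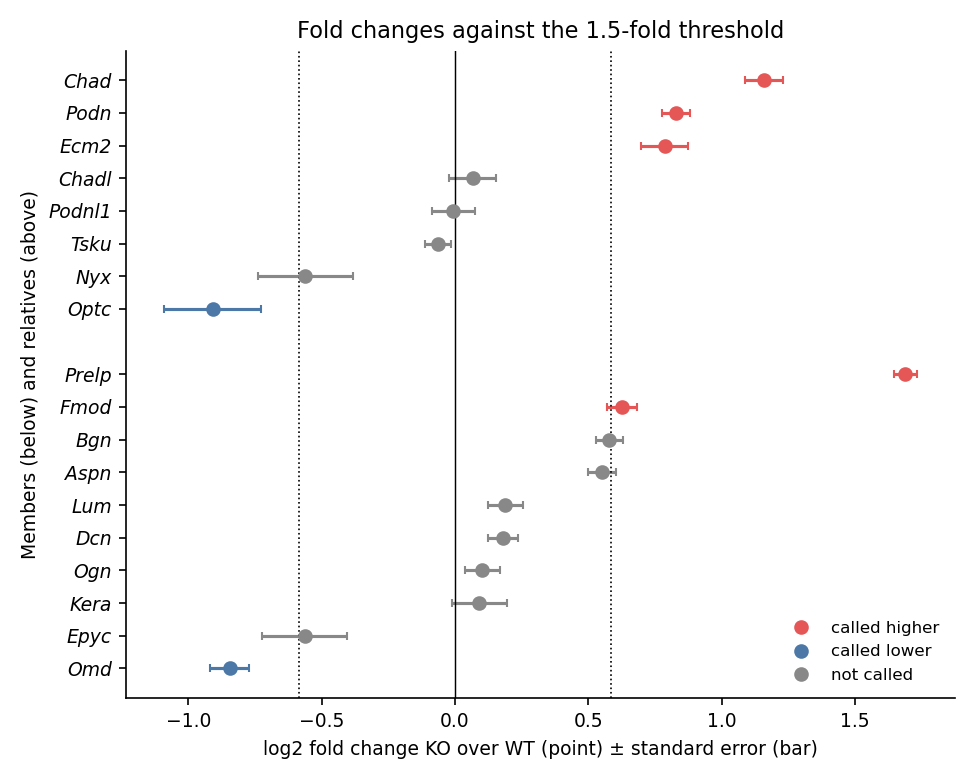
Log2 fold change of KO over WT (point) with its standard error (bar) for the 10 SLRP genes, below, and 8 relatives outside the named set, above, with dotted lines at 1.5-fold. *Bgn* (0.58) and *Aspn* (0.55) sit just inside the right line, *Fmod* (0.63) just outside it, and *Prelp* (1.69) far beyond it.

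Summed over the 10 members, the level was 4509, 4369 and 4576 CPM in WT and 5904, 5730 and 5774 in KO. The sums did not overlap, with means of 4485 ± 106 in WT and 5803 ± 90.2 in KO (SD, n = 3 each), a log2 difference of 0.37 and a ratio of 1.29. The exact permutation test over samples (two-sided) gave p = 0.1, the smallest that 3 samples against 3 allow.

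Levels of different genes were compared per length, as TPM, in which counts are divided by all annotated exon bases of a gene and each library has the same sum. In WT the order of the mean TPM was *Ogn* 707 ± 71.1, *Lum* 694 ± 49.0, *Dcn* 638 ± 20.9, *Aspn* 571 ± 26.7, *Bgn* 535 ± 23.1, *Fmod* 382 ± 31.8 and *Kera* 335 ± 57.3 (SD, n = 3). Far below followed *Prelp* at 42.6 ± 2.64, *Omd* at 33.2 ± 3.04 and *Epyc* at 2.28 ± 0.410 TPM. The ranges of neighbours in this order overlapped for *Ogn* and *Lum*, *Lum* and *Dcn*, *Aspn* and *Bgn*, and *Fmod* and *Kera*, and were apart for the rest. In KO the order was *Aspn* 811 ± 20.3, *Bgn* 775 ± 33.7, *Lum* 769 ± 74.9, *Ogn* 736 ± 24.6, *Dcn* 702 ± 52.9, *Fmod* 571 ± 30.3, *Kera* 346 ± 37.6, *Prelp* 133 ± 8.36, *Omd* 17.95 ± 1.08 and *Epyc* 1.502 ± 0.302 TPM. From *Aspn* to *Dcn*, each neighbour overlapped the next, although every KO value of *Aspn* lay above every KO value of *Ogn* and of *Dcn*. *Prelp* and *Omd* were close in WT, in adjacent places of the order with ranges just apart, and far apart in KO.

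As shares of the summed mean TPM of the 10 members, *Aspn* made up 14.5% in WT and 16.7% in KO, *Bgn* 13.6% and 15.9%, *Fmod* 9.69% and 11.7%, and *Prelp* 1.08% and 2.74%. The shares of *Ogn* (17.9% and 15.1%), *Lum* (17.6% and 15.8%) and *Dcn* (16.2% and 14.4%) were smaller in KO although their own levels were not lower. The ranks depend on the length used. The exons of *Bgn* cover 6099 bases in the annotation but 2666 in the longest transcript. By the longest transcript *Bgn* was first in both genotypes, at a mean of 972 TPM in WT and 1405 in KO. Its shares of the members' sum were then 25.4% and 29.2%. By that length *Ogn* was at rank 3 in WT, and *Dcn* was at rank 2 and *Aspn* at rank 3 in KO.

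Ratios of 2 genes within a library do not depend on library scaling. The count ratio of *Bgn* to *Dcn* was 0.907, 0.839 and 0.882 in WT and 1.11, 1.18 and 1.17 in KO, so *Bgn* had fewer counts than *Dcn* in every WT sample and more in every KO sample. The log2 ratio was higher in KO by 0.40. For *Aspn* to *Dcn* the difference was 0.37 and for *Fmod* to *Lum* 0.44, and the ratio of *Prelp* to *Lum* was 2.83-fold higher, each with no overlap between genotypes. In contrast, *Lum* to *Dcn* (0.01) and *Ogn* to *Dcn* (-0.07) overlapped, with exact permutation p = 0.9 and 0.5. Against the main fibril collagen, *Bgn* to *Col1a1* differed by 0.42 and *Fmod* to *Col1a1* by 0.47 with no overlap, while *Dcn* to *Col1a1* (0.02) and *Lum* to *Col1a1* (0.03) overlapped. *Dcn* to *Col3a1* was lower in KO by -0.17, with no overlap. Of the 11 ratios computed, the 7 without overlap each had p = 0.1 in the exact two-sided permutation test, the smallest possible, or 0.157 after Benjamini-Hochberg adjustment over the 11, so none could pass 0.05.

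**Figure D3:**
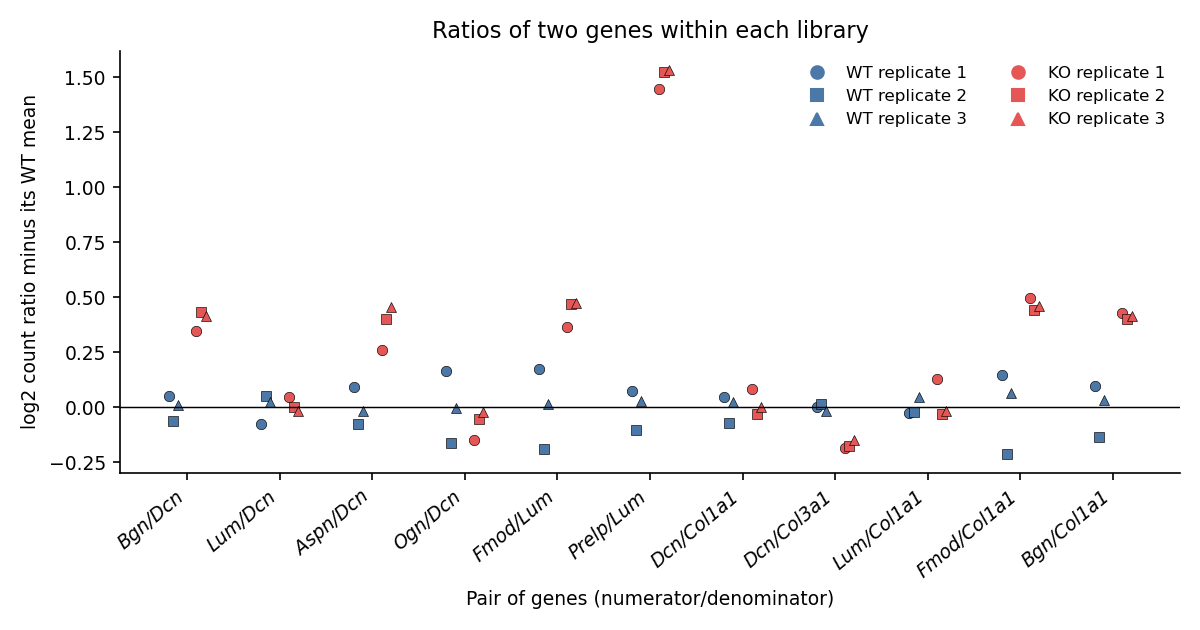
Log2 ratio of the counts of 2 genes within each library, minus its WT mean, for 11 pairs, with WT samples in blue and KO samples in red. The KO samples lie above all WT samples for *Prelp/Lum* (2.83-fold), *Fmod/Col1a1* (log2 difference 0.47), *Fmod/Lum* (0.44), *Bgn/Col1a1* (0.42), *Bgn/Dcn* (0.40) and *Aspn/Dcn* (0.37), and below them for *Dcn/Col3a1* (-0.17).

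By position, the 4 members on chromosome 10 had log2 fold changes of 0.18 (*Dcn*), 0.19 (*Lum*), 0.09 (*Kera*) and -0.56 (*Epyc*), and none was called. On chromosome 13, *Omd* fell (-0.85) between *Aspn* (0.55) and *Ogn* (0.10), 14.9 kb from the one and 15.2 kb from the other. *Ecm2*, a related matrix gene 11.7 kb from *Aspn*, rose (0.79). On chromosome 1, *Prelp* (1.69) and *Fmod* (0.63) rose. *Optc*, a leucine-rich proteoglycan gene of the eye outside the named set, 2.3 kb from *Prelp*, fell (-0.91). It was at a low level of 0.784 CPM in WT and 0.415 in KO. Called genes close to each other thus differed in direction on chromosomes 1 and 13. Within 500 kb of a member, members left out, 1 of 22 tested genes was called higher and 4 lower on chromosome 1, 2 of 12 higher and 0 lower on chromosome 13, and 2 of 31 higher and 8 lower around *Bgn*, with 0 tested on chromosome 10. Over all genes tested, 8.31% were called higher and 8.39% lower. The called genes nearest to *Bgn* were *Trex2* (-2.52) at 48.3 kb and *Zfp92* (-3.46, at 1.91 CPM in WT and 0.172 in KO) at 55.2 kb, and *Card19* (0.83) rose on chromosome 13. *Cenpp*, on the opposite strand over *Aspn*, *Omd* and *Ogn*, shares 7 exon bases with *Aspn* and held 394 to 524 counts with a log2 fold change of -0.0017. The strand setting of the counting is not given, so its reads and those of these members cannot be fully separated.

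**Figure D4:**
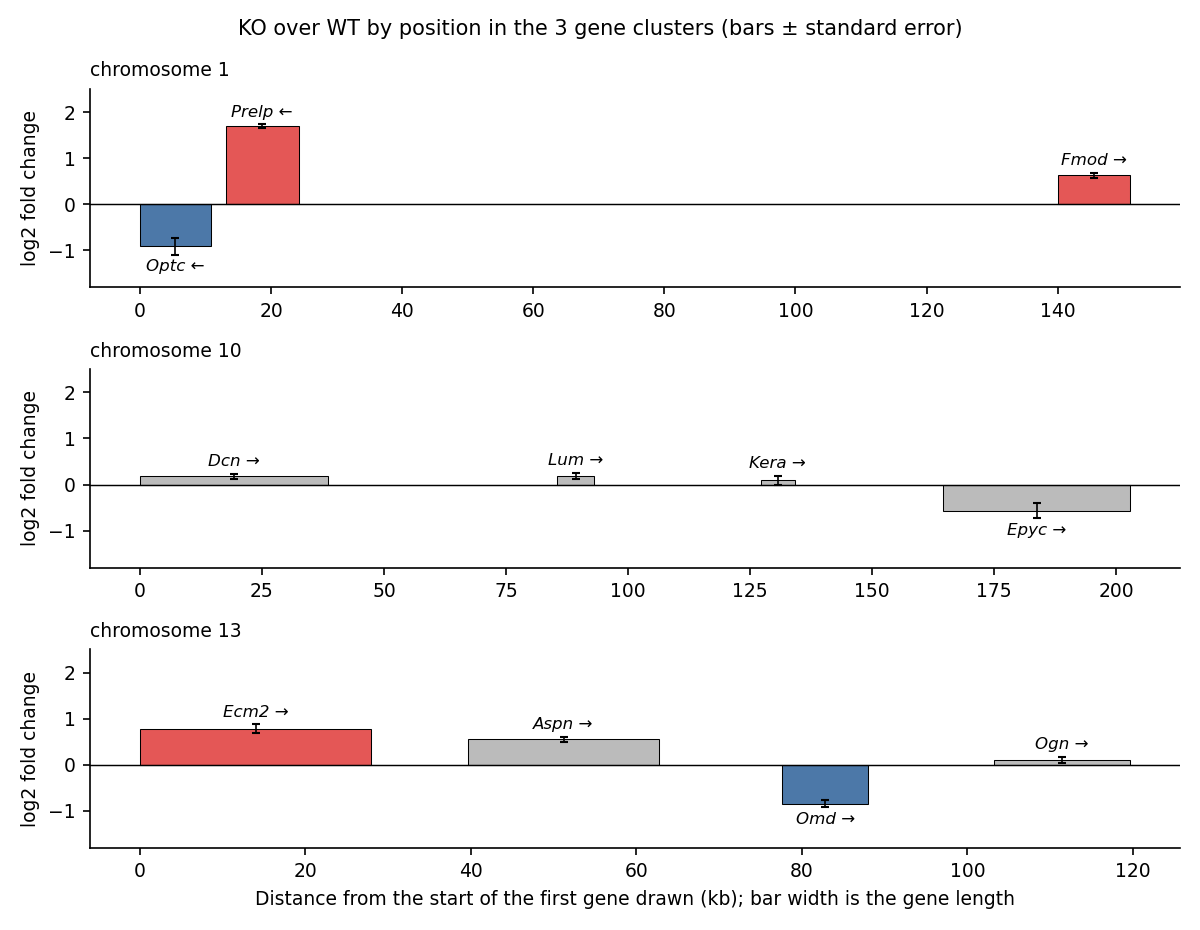
Log2 fold change of KO over WT (bar height, with standard error) by distance in kb from the first gene drawn on chromosomes 1, 10 and 13, where bar width is gene length, arrows give the strand, red is called higher, blue called lower and grey not called. *Omd* (-0.85) lies between *Aspn* (0.55) and *Ogn* (0.10), and *Optc* (-0.91) lies beside *Prelp* (1.69).

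Of 8 relatives with leucine-rich repeats outside the 10 members, 3 rose and 1 fell, beside 8.31% and 8.39% of all genes tested. *Chad*, a cartilage protein that binds integrin and collagen, rose from 7.54 ± 0.437 CPM to 16.8 ± 1.09 (log2 fold change 1.16), and *Podn* (0.83) and *Ecm2* (0.79) also rose. The fourth called gene was *Optc*. The median over the 8 was 0.03.

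None of 12 fibrillar and fibril-associated collagens was called, but 8 passed the adjusted p with a higher level in KO, and the median was 0.26. Over all genes tested, 8.31% were called higher and 8.39% lower. By adjusted p alone, 21.9% of all genes were higher and 23.1% lower. *Col1a1*, at 17112, 19579 and 18280 CPM in WT and 20356, 20701 and 20375 in KO, had a log2 fold change of 0.16 with a standard error of 0.083 (adjusted p = 0.150 from edgeR). *Col3a1* had 0.35, *Col12a1* 0.34 and *Col5a3*, the largest of the list, 0.41. *Prelp*, *Fmod*, *Bgn* and *Aspn*, picked here for their larger differences, were above each of these collagens in log2 fold change. *Lum* (0.19), *Dcn* (0.18), *Ogn* (0.10), *Kera* (0.09), *Epyc* (-0.56) and *Omd* (-0.85) were below the collagen median. Of 14 genes that process SLRPs and collagen or crosslink fibrils, none was called, 9 were higher and 2 lower by adjusted p alone, with a median of 0.20. The largest were *Loxl1* (0.54), a crosslinking enzyme, *Tll1* (0.47), a protease of the family that trims biglycan, and *Pcolce* (0.45), which assists collagen processing.

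Other enzymes build the sugar chains that several SLRPs carry. Of 21 genes of chondroitin and dermatan sulfate synthesis, 0 were called higher and 1 lower, with 4 higher and 4 lower by adjusted p alone and a median of -0.05. Of all genes tested, 8.31% were called higher and 8.39% lower, and 21.9% and 23.1% by adjusted p alone. The gene called was *Chst13* (-0.70), a sulfotransferase at 0.267 to 0.692 CPM, which is named here after its values were seen. The largest among expressed genes were *Chst12* (0.31), *Xylt1* (0.31), which starts the chain, and *Csgalnact2* (0.30). Of 7 genes of keratan sulfate synthesis, none was called, and the median was 0.0016, with *Chst2* at -0.37, *Chst1* at 0.27 and *B4galt1* at 0.26.

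Of 19 growth factors and receptors that SLRPs bind, 3 rose and 1 fell, with a median of 0.15, beside 8.31% and 8.39% of all genes tested. *Ccn2* (0.83), a matrix protein induced by TGFβ, *Bmp6* (0.75) and *Tgfbr3* (0.60), the TGFβ co-receptor, rose, and *Bmp2* fell (-1.12). *Tgfb1* (0.14) and *Tgfb2* (-0.02) were not called, and *Tgfb3* (0.13) and *Tgfbr2* (0.21) passed only without the fold threshold. *Tgfbr3* and these last 4 genes were chosen after their values were seen.

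Markers of cells that can make SLRPs were set beside the members. For scale, 8.31% of all genes tested were called higher and 8.39% lower, and 21.9% and 23.1% by adjusted p alone. Of 12 fibroblast markers, 2 rose, *Ly6a* (1.25) and *Clec3b* (0.66), and 0 fell. By adjusted p alone, 8 of these markers were higher and 0 lower. Their median was 0.28, and they summed to 1617 to 1665 CPM in WT and 2026 to 2056 in KO. *Dcn* (0.18) and *Lum* (0.19) lay below that median and *Prelp*, *Fmod*, *Bgn* and *Aspn* above it. With libraries scaled to these markers, a choice made after the data were seen, the median of all genes moved to -0.31, and *Prelp* (1.38), *Fmod* (0.32), *Bgn* (0.27) and *Aspn* (0.24) remained above 0 while *Dcn* (-0.13), *Lum* (-0.12), *Ogn* (-0.21) and *Kera* (-0.22) lay below it. Of 7 tendon markers, 1 rose (*Thbs4*, 0.63), with 5 higher and 0 lower by adjusted p alone. The tendon median was 0.32, and the sum was 954 to 1027 CPM in WT and 1339 to 1409 in KO. Of 5 dermal fibroblast markers, 3 fell, *Prdm1* (-1.41), *Crabp1* (-0.91) and *Lef1* (-0.90), and the sum was 241 to 271 CPM in WT and 154 to 186 in KO. Of 10 cartilage markers, 7 fell, with a median of -0.97 and sums of 420 to 540 CPM in WT and 354 to 361 in KO. Of 7 bone markers, 1 rose (*Bglap*, 0.63) and 1 fell (*Dmp1*, -0.67), with 2 higher and 4 lower by adjusted p alone, a median of -0.21 and sums of 1011 to 1071 CPM in WT and 957 to 1036 in KO. The medians of the fibroblast and tendon lists were thus above 0, and those of the dermal fibroblast, cartilage and bone lists below it. None of these markers was at 0, and their part in the SLRP values was not tested.

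Of 9 muscle fiber markers 8 rose and 0 fell, of 5 muscle progenitor markers none was called, and of 5 endothelium markers none was called. Of 5 macrophage markers 3 rose, from a sum of 187 to 201 CPM in WT to 304 to 330 in KO. Of all genes tested, 8.31% were called higher and 8.39% lower. Of the 5 sex-linked markers none was called. Among the WT samples, replicate 2 had the highest epidermis sum (26347 CPM) and the lowest sums of cartilage (420), tendon (954), adipocyte (114) and muscle fiber markers (20176). The same library had the lowest level of *Bgn*, *Fmod*, *Kera*, *Ogn*, *Aspn* and *Epyc* and the highest of *Dcn*, *Lum* and *Omd* in WT, so members differed within WT as well.

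**Figure D5:**
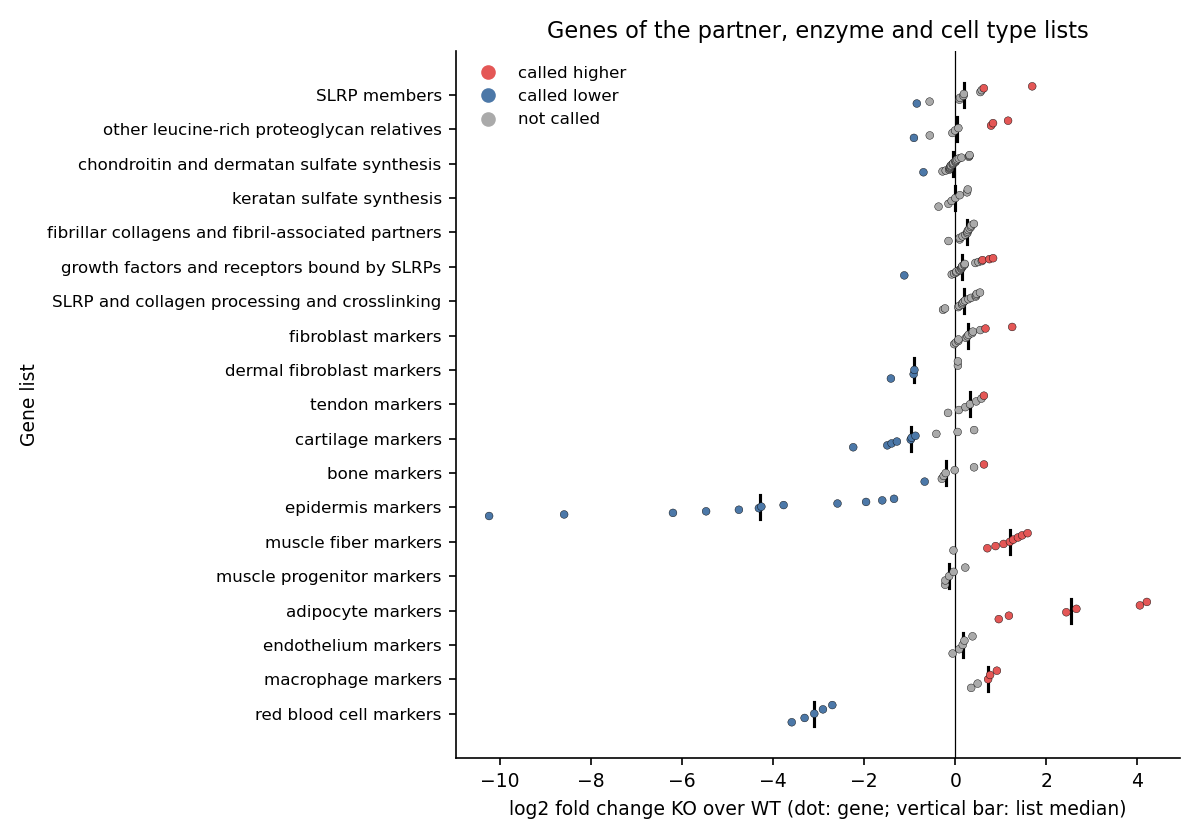
Log2 fold change of KO over WT for every tested gene (dot) of each list, with the list median as a vertical bar, red for called higher, blue for called lower and grey for not called. The SLRP members range from -0.85 to 1.69. Their median (0.18) lies between those of the endothelium markers (0.16) and the processing and crosslinking list (0.20). The medians of the collagens (0.26) and fibroblast markers (0.28) are higher. Epidermis (-4.29) and red blood cell markers (-3.10) lie far to the left and adipocyte markers (2.55) to the right.

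Over the 6 samples, the profiles of members were compared with those of 12370 other genes of at least 5 CPM on average, by the Euclidean distance between log2 CPM values centred on each gene's mean. The nearest to *Prelp* were *Shisa4*, *Gbp7* and *Trim30a* (distances 0.228, 0.236 and 0.263), and no other member was among its 500 nearest, the first being *Fmod* at rank 598. The nearest to *Omd* were *Gba2*, *Psph* and *Slc16a13* (0.113, 0.114 and 0.117). The nearest other member was *Bgn* at rank 12 for *Fmod*, *Aspn* at rank 32 for *Bgn* and *Bgn* at rank 58 for *Aspn*. The nearest gene to *Fmod* was *Traf1* (0.072), to *Bgn* *Olfml2a* (0.050) and to *Aspn* *Jam2* (0.032). *Dcn* was at rank 38 for *Lum* and *Lum* at rank 221 for *Dcn*, at the same distance of 0.103. The nearest gene to *Lum* was *Ednra* (0.063) and to *Dcn* it was *Aplp2* (0.030). The nearest to *Kera* were *Epha5* (0.119) and *Chst5* (0.125), and the nearest to *Ogn* was *Bmpr1b* (0.041). *Epyc* was under 5 CPM and was not ranked. The points share libraries and genotype, so these distances describe 6 samples and carry no test.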

How the data were processed

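Per the methods, the authors ran Trim Galore 0.6.6 for trimming, HISAT2 2.2.1 for mapping to mm10 and featureCounts 2.0.1 for counts per gene. The deposited values are raw counts, as whole numbers without normalization. The annotation and strand setting are not given in the sources used here. GENCODE M21 held 55227 of the gene IDs, version ignored, and lacked 1035, and the former had 99.9963% of counts.

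Counts were tested in R 4.3.3 with edgeR 4.0.16 (filterByExpr, TMM, quasi-likelihood F-test on genotype alone), with Benjamini-Hochberg adjustment over 22071 genes, and the test was checked on simulated data. The labels do not say that replicate numbers pair samples, and deviations of samples with the same number correlated at -0.20, -0.13 and 0.047, so none were paired. TPM used the summed exon length of each gene. Ratios added 0.5 to each count. Among the 16 alternatives to the fit were RLE and upper-quartile factors, library size, DESeq2 1.42.0, limma-voom 3.58.1, no filter and at least 10 counts. The rest were a replicate block, the Y-linked share as a covariate, each sample left out and, chosen after the data were seen, scaling to the fibroblast markers. Other fold thresholds were applied to the main fit and are not among the 16.

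The named genes were all members, the 3 genes with the largest absolute log2 fold change of each list among those of at least 5 CPM on average, the collagens of the ratios, called neighbours within 500 kb and the 3 nearest genes in profile. Not all of these are printed. The members and lists were chosen with earlier results of these data known.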

Additional observations from a re-analysis of the deposited data

How the results depend on the processing

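*Prelp* and *Omd* were called under all 16 alternatives and *Fmod* under 13. The number of members called higher was 2, and became 4 under upper-quartile factors (*Aspn* and *Bgn* added), 1 (*Prelp*) with library size, with scaling to the fibroblast markers and at a fold over 2, and 6 with no fold threshold. Leaving out 1 sample gave 1 to 3, with *Fmod* lost without WT replicate 2 and *Bgn* added without WT replicate 3 or KO replicate 3. The number called lower was 1, and became 2 (*Epyc* added) with library size, with scaling to the fibroblast markers and with no fold threshold, and 0 at a fold over 2. Leaving out 1 sample gave 1 to 2, with *Epyc* added without WT replicate 2 or KO replicate 1 (-0.69 each). Over all genes, the counts called higher and lower were 4838 and 5098 with no fold threshold, 774 and 1269 at a fold over 2, and 865 and 3918 with scaling to the fibroblast markers, which moved the median of all genes to -0.31. Under that scaling the sign turned for *Dcn* (-0.13), *Lum* (-0.12), *Kera* (-0.22) and *Ogn* (-0.21), each of which stayed above the moved median. *Kera* also turned without WT replicate 2, and leaving out 1 sample gave -0.026 to 0.20 for it. The summed level differed by 0.30 with library size. Leaving out 1 sample turned the sign of ratios near 0, whose ranges were -0.026 to 0.036 for *Lum* to *Dcn*, -0.15 to 0.010 for *Ogn* to *Dcn*, -0.019 to 0.041 for *Dcn* to *Col1a1* and -0.023 to 0.057 for *Lum* to *Col1a1*. The causes were not tested.

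With the replicate block, although the numbers are not known to pair the samples, 2 members were called higher and 1 lower, with 1744 and 1777 genes in all, and *Dcn* (adjusted p = 0.0810) and *Lum* (0.103) no longer passed the adjusted p. Among the members, depth limits *Epyc* most, at 108 to 221 counts.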
